A study of Mus musculus with 12 samples.

Results

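The 10 genes of the Polycomb repressive complexes described here, in sorted stages of mouse spermatogonia, were Ezh1, Ezh2, Eed, Suz12, Bmi1, Rnf2, Ring1, Cbx2, Scml2 and Phc1. They were taken as every probe that carries one of these 10 gene names on the array, which gave 15 probes of 55681, for 10 of 36315 gene names. RNA was measured on 1-color Agilent arrays in 4 groups of 3 samples, all from C57BL/6 mice aged 10 to 11 weeks. GFRα1+ cells were the GFP+ fraction of GFRα1-EGFP knock-in mice (1 mouse per sample; the number of knock-in alleles is not given in the sources used here). NGN3+ cells were the GFP+/KIT- fraction (2 mice pooled per sample) and KIT+ cells the GFP+/KIT+ fraction (1 mouse per sample) of Ngn3-EGFP transgenic mice. Whole testes came from wild-type littermates of the GFRα1-EGFP line. GFP persists in the Ngn3-EGFP line after the gene is shut off, so the NGN3+ and KIT+ fractions share a reporter line and an antibody stain. The GFRα1+ fraction differs from both in line as well as in stage, and these cannot be told apart in comparisons that involve it.

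Polycomb proteins keep developmental genes silent by marking histones. Polycomb repressive complex 2 (PRC2) holds EED, SUZ12 and one of the methyltransferases EZH1 and EZH2, and methylates lysine 27 of histone H3. Polycomb repressive complex 1 (PRC1) holds one of the ubiquitin ligases RING1 and RNF2 (RING1B), which modify histone H2A, together with a PCGF protein such as BMI1, a CBX protein that reads the PRC2 mark, and a PHC protein. SCML2 is a germline-enriched protein associated with PRC1. In germ cells these complexes are known to hold down somatic genes.

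A level is given throughout as the log2 processed signal minus the 75th percentile of its array, so that 0 is the 75th percentile and 1 unit is a doubling. A change was called at an adjusted p under 0.05 in a limma fit over all genes tested (Benjamini-Hochberg), and a log2 ratio is the difference of group mean levels, written with its standard error. A difference in level can come from fewer cells of a type or from less RNA per cell, and arrays of bulk RNA cannot tell these apart. Levels of different probes are not comparable, since each probe binds with its own strength.

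The arrays had 50.1 to 65.1% of probes well above background (Agilent's test of a spot against its background), and replicates correlated at 0.984 to 0.993 across probes. The share well above background was lowest in GFRα1+ arrays, at 50.1 to 50.8%. It was 59.5 to 65.1% for NGN3+, 54.8 to 62.0% for KIT+ and 54.8 to 57.6% for whole testes. GFRα1+ arrays were also the dimmest, with 75th percentile intensities of 318.4 to 340.2, beside 473.1 to 675.2 for NGN3+. The part of this in the Polycomb results was not tested. Gfra1, Neurog3 and Kit each had their highest mean in the fraction named for them, and the germ cell markers Ddx4 and Dazl were well above background on all arrays. Spermatid markers were not even between the fractions. Their summed level ran from 5.28 to 6.27 over GFRα1+, 10.5 to 10.8 over NGN3+ and 10.8 to 11.1 over KIT+ samples, against 12.7 to 13.0 in whole testes, and 20 of 20 rose from GFRα1+ to NGN3+ cells. Of these 20, only Acrv1 was above background on no GFRα1+ array, and none was called between NGN3+ and KIT+ cells. Of 8 peritubular myoid cell markers, 8 rose at this step and 6 fell at the next, into KIT+ cells. Sertoli cell markers rose for 9 of 13 tested and fell for 1 from GFRα1+ to NGN3+ cells, although their summed level did not (5.90 to 6.06 against 5.47 to 5.87), and spermatocyte markers rose for 7 of 11 and fell for 4. Summed levels of other somatic cell types lay higher in GFRα1+ samples, with some overlap. Leydig cell markers ran from 2.60 to 3.43 there and 1.16 to 1.81 in NGN3+ samples (1 of 2 tested fell). Leukocyte markers ran from 1.01 to 1.55 and 0.61 to 1.05, although 2 of 4 tested rose and 1 fell. Endothelial cell markers ran from 3.38 to 4.01 and 2.55 to 3.53, and 2 of 7 rose and 2 fell. From GFRα1+ to KIT+ cells 5 of 8 endothelial markers fell and 2 rose. The part of these cells' RNA in the Polycomb results was not tested. Slide and group overlapped only in part: GFRα1+ replicates 1 and 2 and whole testes replicate 1 lay on slide 1, GFRα1+ replicate 3 and all NGN3+ and KIT+ samples on slide 2, and whole testes replicates 2 and 3 on slide 3.

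All 15 probes were well above background on all 12 arrays, so that no level of the 10 genes is a bound. Ezh1, Bmi1 and Scml2 had more than 1 probe, and each of these genes is read from its brightest probe in sorted cells. The sequences of these 8 probes are shown because the probes of a gene did not always agree. Each line gives 30 bases of the 60-base probe, 5′ to 3′ on the transcript strand, with the letters of a polyadenylation signal (AATAAA or ATTAAA) in capitals where the probe holds one. The whole of the Ezh1 probe that lies in coding sequence is given in its place.
Ezh1 A_55_P2082869 (main probe): gacctcttatctAATAAAgtgttaagactc
Ezh1 A_55_P2155942: taaaacatgtcggttctagactgagctcag
Ezh1 A_55_P2017086 (whole): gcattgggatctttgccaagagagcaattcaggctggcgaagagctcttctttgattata
Bmi1 A_55_P2170335 (main probe): ttgcttgtagccATTAAAtcattactttta
Bmi1 A_52_P39157: tggtgaatttaactcatttttctagacttt
Scml2 A_55_P2050019 (main probe): aaagagaagcctcaaacgattgtctctgca
Scml2 A_66_P102256: ttgtagtacattaatagtatactcttattc
Scml2 A_55_P2003803: gtatgaagatgctctttccagttgattgga

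In mm9 coordinates of the array files, the Ezh1 probes lie on the minus strand of chromosome 11, at chr11:101052430-101052489 and chr11:101052680-101052739 near the end of the transcript, and at chr11:101054534-101054593. The Bmi1 probes lie on the plus strand at chr2:18607531-18607590 and, 456 bases further along, at chr2:18607987-18608046. The main Scml2 probe is at chrX:157684208-157684267, on the plus strand. The other Scml2 probes are at chrX:157694750-157694809 and chrX:157696035-157696094. The first of these lies 344 bases from the main probe in the transcript but 10542 bases from it in the genome. Most of the genomic bases between them are therefore spliced out of the transcript.

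From GFRα1+ to NGN3+ cells, 7 of the 10 genes fell, 1 rose and 2 did not pass the test. Ezh2, Phc1, Suz12, Rnf2, Bmi1, Ezh1 and Eed fell by 1.25 to 1.58-fold, and Cbx2 rose 1.28-fold. Over all 23792 genes tested 36.3% were called lower and 20% higher, so falls outnumbered rises in general. The median log2 ratio of the 10 genes was −0.45, beside −0.19 for all genes tested. From NGN3+ to KIT+ cells, Suz12 and Ezh2 rose again (17.5% of all genes were called higher), and Ezh1 fell further (17% were called lower), while the other 7 did not pass the test. The medians were 0.19 for the 10 genes and 0.05 for all genes. Since NGN3+ samples enter both steps, a sample that is low there weighs on the fall and on the rise alike.

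The general fall from GFRα1+ to NGN3+ cells depended on the scale. With the 75th percentile taken over probes well above background on all arrays, the median of all genes moved from −0.19 to −0.0088 and the calls from 4754 higher and 8628 lower to 5914 and 5904. Of the 7 falling members, 5 were still called on that scale (Ezh2, Phc1, Suz12, Rnf2 and Bmi1) and Ezh1 and Eed were not. Within slide 2, which leaves 1 GFRα1+ sample whose spread is taken from the others, all 7 kept log2 ratios below 0. These were Phc1 −0.76, Rnf2 −0.75, Ezh2 −0.56, Ezh1 −0.54, Suz12 −0.50, Bmi1 −0.45 and Eed −0.41, and Ring1 stood at 0.66. Most of the 7 did not pass the test there, and fewer of all genes were called lower there as well.

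**Figure D1:**
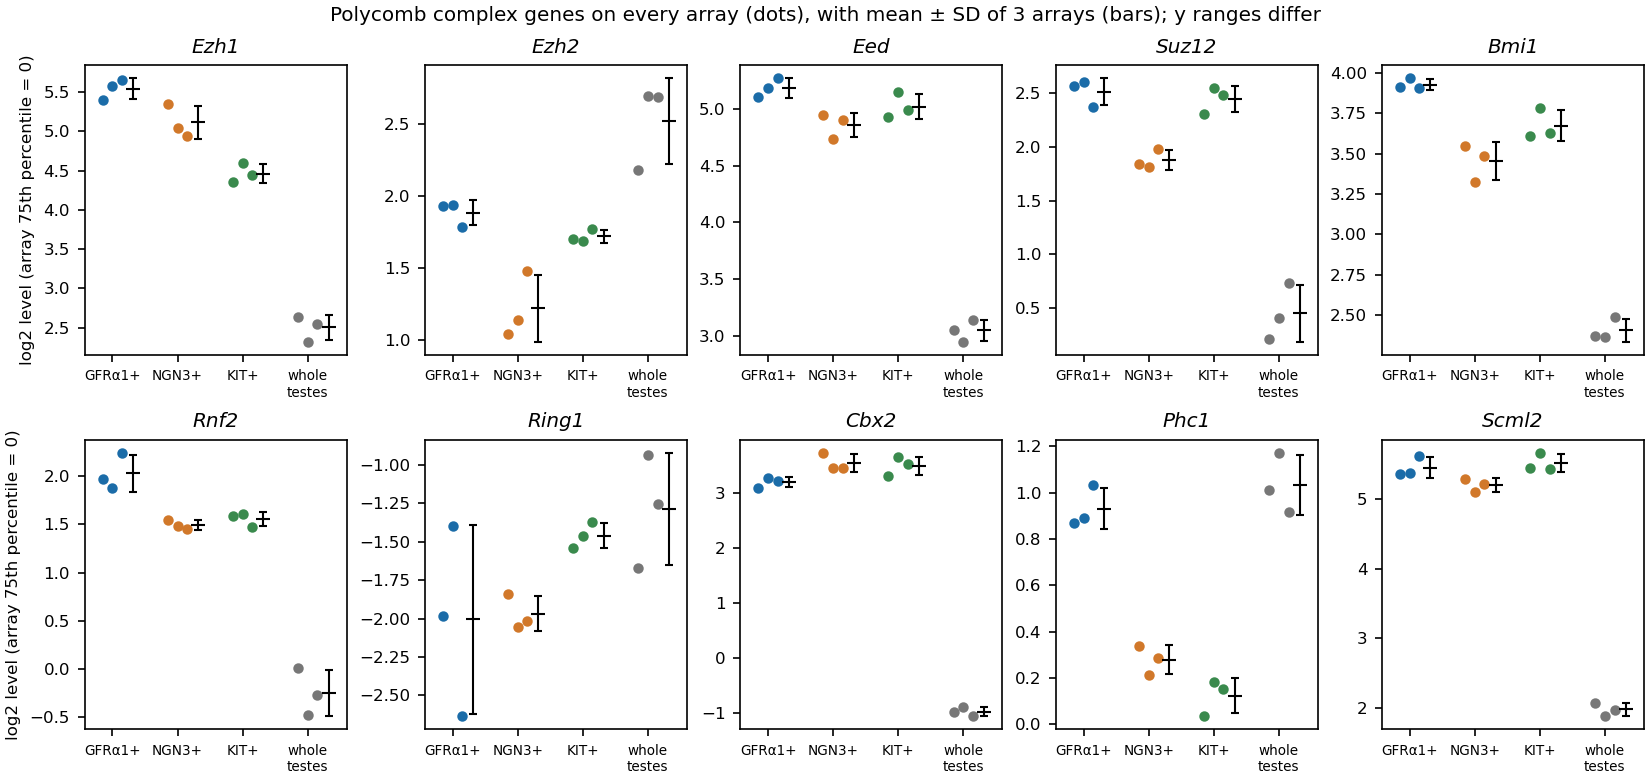
Log2 level (y axis, array 75th percentile = 0) of the probe standing for each of the 10 genes in the 4 groups (x axis); dots are arrays and bars mean ± SD of 3. Ezh1 steps down from group to group, and Cbx2 and Scml2 drop in whole testes. Ezh2, Suz12, Eed, Bmi1, Rnf2 and Scml2 have their lowest sorted mean in NGN3+ cells, with both steps called for Ezh2 and Suz12.

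The PRC2 methyltransferases took different courses. Ezh1, whose product methylates H3K27 with lower activity than EZH2 and is known from slowly dividing cells, stood at 5.39, 5.57 and 5.65 in GFRα1+ samples, 5.35, 5.05 and 4.95 in NGN3+ samples, and 4.35, 4.60 and 4.44 in KIT+ samples. Whole testes had 2.64, 2.32 and 2.55. The 4 groups did not overlap, and they fell in the order GFRα1+, NGN3+, KIT+, whole testes with each neighboring pair called. The log2 ratio was −0.43 ± 0.14 from GFRα1+ to NGN3+ cells (adjusted p = 0.0276) and −0.65 ± 0.14 from NGN3+ to KIT+ cells (adjusted p = 0.00658). From GFRα1+ to KIT+ cells Ezh1 was 2.11-fold lower (log2 ratio −1.08 ± 0.14, adjusted p = 0.000162), a comparison in which 3 members fell beside 39.3% of all genes. It ranged from −1.23 to −0.87 over 26 alternative settings and was called in each, as was the fall from NGN3+ to KIT+ cells. The first fall was less firm. It was −0.12 after quantile normalization (adjusted p = 0.351) and missed the threshold without GFRα1+ replicate 2 or 3 or NGN3+ replicate 2 or 3 (−0.41 to −0.34, adjusted p from 0.0716 to 0.0937). None of the 10 genes was called higher in KIT+ than in GFRα1+ cells by limma, beside 26.4% of all genes, and Cbx2 alone was higher at an unadjusted p under 0.05. On the other scales 2 members were called higher.

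All 3 Ezh1 probes fell at both steps. The second probe near the transcript end gave −0.41 ± 0.14 and −0.69 ± 0.14, and the coding probe −0.69 ± 0.11 and −0.82 ± 0.11 (adjusted p = 0.00096 and 0.000699). The coding probe thus moved the most, by 2.86-fold from GFRα1+ to KIT+ cells, and all 3 agreed on the direction.

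Ezh2, the more active methyltransferase and one known from dividing cells, was at 1.93, 1.94 and 1.78 in GFRα1+ samples, 1.04, 1.14 and 1.48 in NGN3+ samples and 1.70, 1.68 and 1.77 in KIT+ samples. Its 1 probe lies at chr6:47480307-47480366. The NGN3+ samples were all below the others, with replicate 3 the closest to them. Ezh2 fell 1.58-fold into NGN3+ cells (log2 ratio −0.66 ± 0.13, adjusted p = 0.00275) and rose 1.42-fold into KIT+ cells (0.50 ± 0.13, adjusted p = 0.0166). KIT+ and GFRα1+ cells were not distinguished, with a log2 ratio of −0.16 and a 95% interval from −0.46 to 0.13. The rise missed the threshold without NGN3+ replicate 1 (0.41, adjusted p = 0.0551), NGN3+ replicate 2 (0.46, adjusted p = 0.0661) or KIT+ replicate 3 (0.47, adjusted p = 0.062). It was also not called by the methods' t-test with Benjamini-Hochberg adjustment (adjusted p = 0.0631) or at an adjusted p under 0.01.

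The unequal course of the paralogs was also measured within arrays, as the Ezh2 level minus the Ezh1 level, which has no meaning by itself but may be compared between groups. Its mean over 3 samples was −3.66 ± 0.21 (SD) for GFRα1+, −3.90 ± 0.42 for NGN3+, −2.75 ± 0.15 for KIT+ and 0.015 ± 0.43 for whole testes. From NGN3+ to KIT+ cells it rose in value by 1.15 with no overlap of the samples. The two-sided exact permutation p was 0.1 (0.12 adjusted over the 12 tests of this kind), the smallest that 3 samples against 3 allow, so this comparison could not reach 0.05. Between GFRα1+ and NGN3+ cells the samples overlapped and the difference was −0.24 (exact permutation p = 0.4).

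SUZ12 and EED are core subunits that every PRC2 needs. Suz12 (probe at chr11:79847251-79847310) stood at 2.57, 2.61 and 2.38 in GFRα1+ samples, 1.84, 1.82 and 1.98 in NGN3+ samples and 2.31, 2.55 and 2.48 in KIT+ samples. No NGN3+ sample reached the lowest of the other sorted samples. It fell by 0.64 ± 0.11 on the log2 scale (adjusted p = 0.00175) and rose by 0.57 ± 0.11 (adjusted p = 0.00502), so that Suz12 and Ezh2 shared the dip in NGN3+ cells. The rise of Suz12 was called under all 26 alternatives, with log2 ratios from 0.52 to 0.63. Eed (probe at chr7:97103264-97103323) had 5.10, 5.18 and 5.27 in GFRα1+, 4.94, 4.74 and 4.90 in NGN3+ and 4.93, 5.15 and 4.99 in KIT+ samples. Its fall into NGN3+ cells was small (−0.32 ± 0.11, adjusted p = 0.031) and its KIT+ samples overlapped both other fractions. The Eed fall was −0.041 after quantile normalization (adjusted p = 0.708), and it missed the threshold without GFRα1+ replicate 2 or 3, NGN3+ replicate 2 or 3 or KIT+ replicate 3 (−0.34 to −0.26, adjusted p from 0.0515 to 0.12).

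Suz12 and Ezh2 were the members called at both steps with a turn between them, and their promoters are shown for that reason. RefSeq promoters (GRCm38.p6) were at hand for 9 of the 10 genes, Cbx2 being the exception, and the 250 bases upstream of the start were searched on both strands for the E2F letters TTTCCCGC, TTTGGCGC, TTTCGCGC and TTTGCCGC. E2F factors switch on genes for DNA replication. Of the 9 promoters only that of Suz12 held a match, and 1.86% of all 32851 promoters did. In the sequences the match is in capitals.
Suz12 promoter, plus strand, chr11:79992856-79993105: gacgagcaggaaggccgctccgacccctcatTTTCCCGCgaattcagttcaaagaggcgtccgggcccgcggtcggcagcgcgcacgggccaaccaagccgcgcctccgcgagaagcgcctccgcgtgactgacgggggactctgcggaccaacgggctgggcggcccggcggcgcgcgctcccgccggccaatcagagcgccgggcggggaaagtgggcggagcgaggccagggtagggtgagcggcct
Ezh2 promoter, minus strand, chr6:47595031-47595280: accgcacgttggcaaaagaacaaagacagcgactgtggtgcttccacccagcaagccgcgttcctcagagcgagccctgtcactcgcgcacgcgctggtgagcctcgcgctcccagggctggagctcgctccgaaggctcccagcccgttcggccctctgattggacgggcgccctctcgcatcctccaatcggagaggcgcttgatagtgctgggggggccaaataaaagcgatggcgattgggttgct

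A match of letters is a description and not a binding site. The palindromic E-box CACGTG was found in the promoter of Bmi1 alone of the 9, beside 6.02% of all promoters. The ETS letters CCGGAAGT and the NRF1 motif were in none of the 9, and in 2.88% and 0.782% of all promoters.

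**Figure D2:**
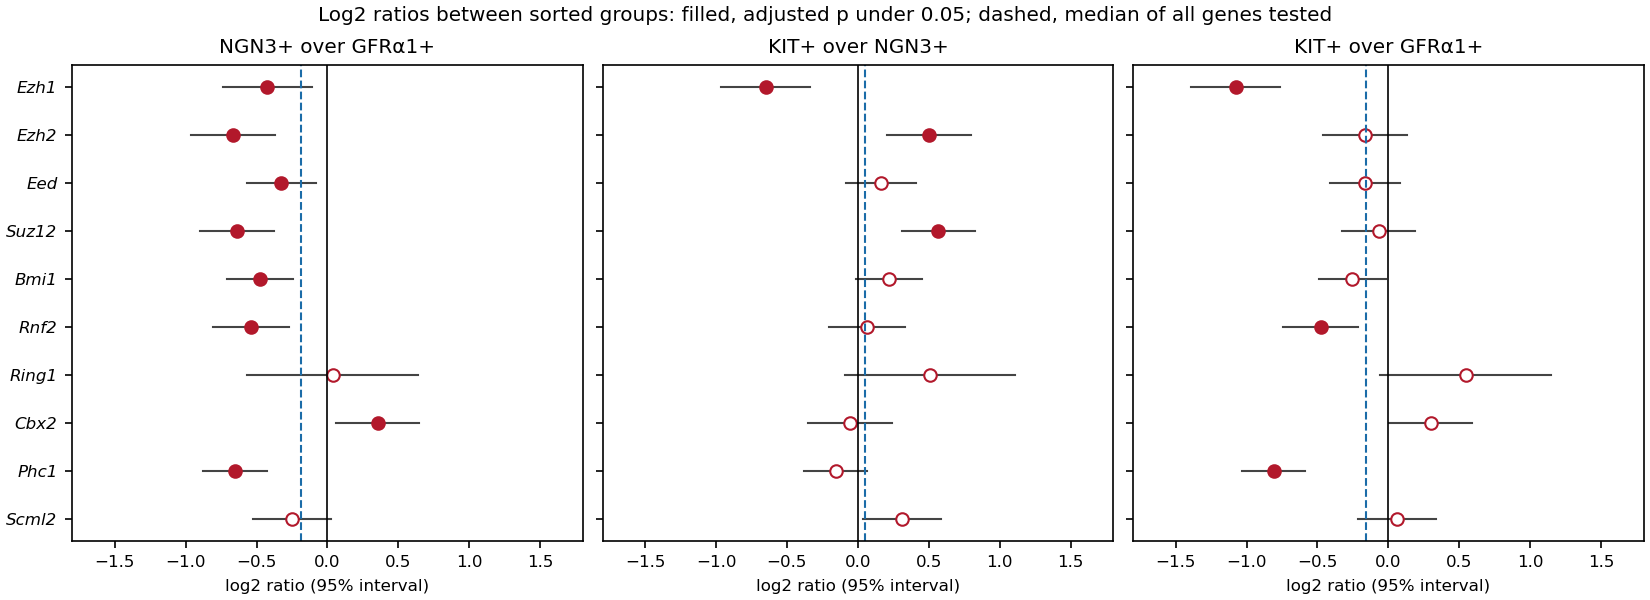
Log2 ratios (x axis) of the 10 genes (y axis) between sorted fractions with 95% intervals; filled points passed an adjusted p of 0.05, and the dashed line is the median of all genes tested. In NGN3+ over GFRα1+ 7 filled points lie below 0, and in KIT+ over NGN3+ Suz12 and Ezh2 lie above 0 and Ezh1 below.

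Among PRC1 genes, the ligase gene Rnf2 (chr1:153316987-153317046) stood at 1.97, 1.88 and 2.24 in GFRα1+, 1.54, 1.48 and 1.45 in NGN3+ and 1.58, 1.61 and 1.47 in KIT+ samples. GFRα1+ samples were above all others, and NGN3+ and KIT+ samples overlapped. The fall into NGN3+ cells was −0.54 ± 0.12 (adjusted p = 0.0047), and KIT+ cells stayed 1.39-fold below GFRα1+ cells (−0.48 ± 0.12, adjusted p = 0.00635). Unlike Ezh2 and Suz12, Rnf2 was not called between NGN3+ and KIT+ cells (0.06, 95% interval −0.20 to 0.33).

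Ring1, the paralog of Rnf2 (chr17:34158164-34158223), was the most scattered member. It had −1.98, −1.40 and −2.63 in GFRα1+, −1.84, −2.05 and −2.01 in NGN3+ and −1.54, −1.46 and −1.37 in KIT+ samples. GFRα1+ samples alone spanned nearly the whole range, with KIT+ replicate 3 just above them, and no comparison among sorted cells passed the test. From GFRα1+ to NGN3+ cells the log2 ratio was 0.037 (95% interval −0.57 to 0.64), and it was −0.28 without GFRα1+ replicate 3. From GFRα1+ to KIT+ cells it was 0.55 (adjusted p = 0.0984), and 0.85 without GFRα1+ replicate 2 (adjusted p = 0.00632). The log2 ratio from NGN3+ to KIT+ cells was 0.51 ± 0.26 (adjusted p = 0.179). Without GFRα1+ replicate 3, the lowest sample, the same ratio had an adjusted p of 0.0389, and it was called within slide 2 too (adjusted p = 0.0134). Within arrays the Rnf2 level minus the Ring1 level averaged 4.04 ± 0.80 (SD over 3 samples) in GFRα1+, 3.46 ± 0.08 in NGN3+ and 3.01 ± 0.15 in KIT+ cells. The last pair did not overlap (difference −0.45, exact permutation p = 0.1, adjusted 0.12).

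Phc1, which encodes a polyhomeotic protein that joins PRC1 units into larger bodies, had 0.87, 0.89 and 1.03 in GFRα1+, 0.34, 0.21 and 0.29 in NGN3+ and 0.04, 0.18 and 0.15 in KIT+ samples (chr6:122268043-122268102). GFRα1+ samples stood clear of both other fractions. The log2 ratio was −0.65 ± 0.10 into NGN3+ cells (adjusted p = 0.000702) and −0.81 ± 0.10 from GFRα1+ to KIT+ cells (adjusted p = 0.000117). NGN3+ and KIT+ cells did not overlap but were not called apart (−0.16, 95% interval −0.38 to 0.07). Both called falls of Phc1 passed the threshold under every alternative tried, within slide 2 included.

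Cbx2, which encodes a CBX protein known for its part in gonad development, was the member that rose. It had 3.09, 3.26 and 3.21 in GFRα1+, 3.72, 3.45 and 3.45 in NGN3+ and 3.30, 3.64 and 3.51 in KIT+ samples (chr11:118892363-118892422). NGN3+ samples were above all GFRα1+ samples, led by replicate 1. The rise of 0.35 ± 0.13 had an adjusted p of 0.0433, and it missed the threshold when any 1 GFRα1+ or NGN3+ sample was left out (0.26 to 0.40, adjusted p from 0.0588 to 0.127), and also without KIT+ replicate 3, which shares the estimate of the spread (adjusted p = 0.0665). Quantile normalization raised it to 0.59 (adjusted p = 0.00212).

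BMI1 is the PCGF protein that raises the ligase activity of the RING proteins and is known for stem cell renewal. The main Bmi1 probe gave 3.91, 3.96 and 3.90 in GFRα1+, 3.55, 3.32 and 3.49 in NGN3+ and 3.61, 3.78 and 3.63 in KIT+ samples. It fell into NGN3+ cells by 0.47 ± 0.10 on the log2 scale (adjusted p = 0.00471), and the second probe fell by 0.60 ± 0.13 (adjusted p = 0.00571). The probes parted after that. Between GFRα1+ and KIT+ cells the main probe gave −0.25 ± 0.10 (adjusted p = 0.0555) and the second −0.82 ± 0.13 (adjusted p = 0.000729).

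The probes of Scml2 parted earlier. Its main probe was nearly level, at 5.36, 5.38 and 5.63 in GFRα1+, 5.30, 5.10 and 5.23 in NGN3+ and 5.45, 5.67 and 5.44 in KIT+ samples. The NGN3+ samples lay just below the others, and the log2 ratio of −0.25 ± 0.12 was not called (adjusted p = 0.109). The probe 344 bases downstream had 2.95, 2.89 and 2.48 in GFRα1+, then 2.12, 1.90 and 2.05 in NGN3+ samples. It fell by 0.75 ± 0.15 on the log2 scale (adjusted p = 0.00292). The last probe had 2.86, 2.62 and 3.16 in GFRα1+ and 1.66, 1.64 and 1.83 in NGN3+ samples and fell 2.25-fold (−1.17 ± 0.15, adjusted p = 0.000271).

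Both downstream Scml2 probes were also lower in KIT+ than in GFRα1+ cells (adjusted p = 0.00812 and 0.000382), where the main probe gave 0.06 (95% interval −0.21 to 0.34). None of the 3 was called between NGN3+ and KIT+ cells. The array design lists 3 Ensembl transcripts for the main probe and the same 3 for the middle probe, and 3 others for the last. With all probes averaged, Scml2 would be called lower in NGN3+ than in GFRα1+ cells (−0.72) where its main probe was not.

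**Figure D3:**
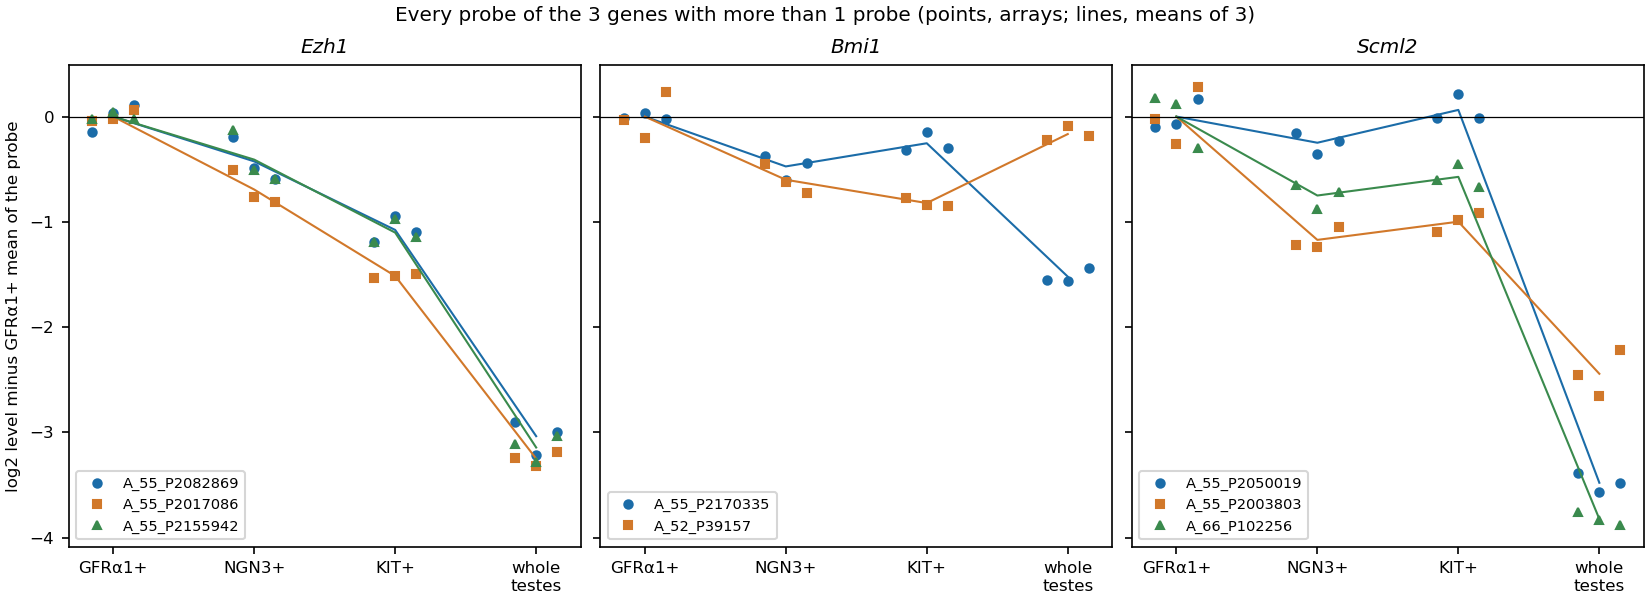
Log2 level of each probe minus its own GFRα1+ mean (y axis) in the 4 groups (x axis) for the genes with more than 1 probe; points are arrays and lines join means of 3. The Ezh1 probes run together, the Bmi1 probes part in whole testes, and both downstream Scml2 probes fall into NGN3+ cells while the main probe stays near 0.

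Against whole testes, which hold later germ cells and somatic cells as well, 7 of the 10 genes were higher in each sorted fraction: Cbx2, Scml2, Ezh1, Eed, Suz12, Rnf2 and Bmi1. Such calls were common, with 50.3% of all genes higher in GFRα1+, 44.5% in NGN3+ and 43.7% in KIT+ samples. The 3 comparisons share the whole testes samples. The median log2 ratio of the 10 genes was 2.10, 1.59 and 1.88, and that of all genes 0.41, 0.15 and 0.08.

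Cbx2 showed the largest ratios of the 10. It had −0.98, −0.90 and −1.05 in whole testes, and was 17.9-fold higher in GFRα1+, 22.9-fold in NGN3+ and 22.0-fold in KIT+ cells (log2 ratios 4.16, 4.52 and 4.46, each ± 0.12). Scml2 was next, with 2.07, 1.89 and 1.97 in whole testes by its main probe. It was 11.1-fold higher in GFRα1+, 9.39-fold in NGN3+ and 11.7-fold in KIT+ cells, and its other probes were 2.41-fold to 14.2-fold higher. Ezh1 was higher by 8.20-fold, 6.11-fold and 3.89-fold in the same order, following its fall through the fractions.

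The remaining risers were smaller. Eed had 3.05, 2.95 and 3.14 in whole testes and was 3.51-fold to 4.40-fold higher in sorted cells. Suz12 had 0.21, 0.40 and 0.73, and Rnf2 0.00, −0.47 and −0.27. Their ratios ran from 2.70-fold to 4.20-fold and from 3.34-fold to 4.85-fold. Bmi1 was 2.07-fold to 2.87-fold higher by its main probe (2.37, 2.36 and 2.49 in whole testes). Its second probe disagreed in direction in NGN3+ and KIT+ cells. That probe, in the same 3′ part of the gene, had 0.01, 0.14 and 0.05 in whole testes. It was lower in NGN3+ (−0.43 ± 0.13, adjusted p = 0.00839) and KIT+ cells (−0.66 ± 0.13, adjusted p = 0.000574). No single direction for Bmi1 against whole testes therefore holds for both probes in these fractions. In GFRα1+ cells the second probe was not called (0.17, adjusted p = 0.238). The array design lists 3 Ensembl transcripts for the main Bmi1 probe and 1 of these for the second.

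Ezh2 went the other way. Whole testes had 2.18, 2.70 and 2.68, above every sorted sample, and Ezh2 was lower by 1.56-fold in GFRα1+ (adjusted p = 0.00294), 2.46-fold in NGN3+ (adjusted p = 1.49e-05) and 1.74-fold in KIT+ cells (adjusted p = 0.000669). Within slide 1, where 2 GFRα1+ samples stood beside whole testes replicate 1, the log2 ratio was −0.25 (adjusted p = 0.138). With the slide as a fixed block the KIT+ value was −0.31 and was no longer called (adjusted p = 0.299). No slide held whole testes with NGN3+ or KIT+ samples.

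Phc1, at 1.01, 1.17 and 0.92 in whole testes, was not called in GFRα1+ cells (−0.10, 95% interval −0.33 to 0.13), but was called lower there with the percentile of well-detected probes (−0.51, adjusted p = 0.000293). It was lower in NGN3+ (−0.75 ± 0.10) and KIT+ cells (−0.91 ± 0.10). Ring1 had −1.67, −0.94 and −1.25. It was called lower in GFRα1+ (−0.72, adjusted p = 0.0279) and NGN3+ cells (−0.68, adjusted p = 0.0367) and not in KIT+ cells (−0.17, adjusted p = 0.561). With the slide as a fixed block Ring1 turned to 0.64 in NGN3+ cells (adjusted p = 0.12) and was called higher in KIT+ cells (1.15, adjusted p = 0.014), so its direction against whole testes depended on the slide term. Each call missed the threshold without whole testes replicate 2 (−0.54, adjusted p = 0.11, and −0.51, adjusted p = 0.137) or replicate 3 (−0.70, adjusted p = 0.0637, and −0.66, adjusted p = 0.0795). The GFRα1+ call was also lost without GFRα1+ replicate 1 or 3 (adjusted p = 0.0541 and 0.112), and the NGN3+ call without any 1 NGN3+ sample (adjusted p from 0.0524 to 0.0898). The GFRα1+ call went to −0.02 within slide 1 (adjusted p = 0.955). Beside these, 37.1%, 39.2% and 41.2% of all genes were lower in GFRα1+, NGN3+ and KIT+ cells, and 2, 3 and 2 members. By the probe standing for each gene, whole testes therefore stood lowest for 7 members and highest for Ezh2, Phc1 and Ring1. For Bmi1 this did not hold by its second probe. Phc1 and Ring1 were not called apart from their nearest sorted group on the main scale.

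The genes most like each member over the 12 arrays, among 17638 genes well above background on all of them, were found by Pearson's r as a description. Most of the variation is that between sorted cells and whole testes, so high values are usual. Scml2 was closest to Rfc5 (0.9996), a subunit of the clamp loader of DNA replication, and Endog (0.9994). Eed was closest to Tti1 and Tnpo3, Ezh1 to Xrn2 and Rhot2, Cbx2 to Trmt44 and Isoc1, Rnf2 to Bcl9 and Iqcb1, Bmi1 to Actr3 and Bloc1s6, and Suz12 to 6330549D23Rik and Gpc1, all at 0.995 or more. Ezh2 followed Mia3 (0.981) and Hypk (0.979), and Phc1 followed Cfap20 (0.989). Ring1 had no close companion, with Ap1s2 at 0.865.

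Other genes of the Polycomb system were read from lists of 9 groups, each counted beside all genes tested. Of all genes, 36.3% fell and 20% rose into NGN3+ cells, and 17% fell and 17.5% rose into KIT+ cells. From GFRα1+ to KIT+ cells 39.3% fell and 26.4% rose. The list of PRC2 cofactors holds genes whose products guide the complex to its sites, and others such as Rbbp4. Of 9, 4 fell into NGN3+ cells and none rose, with a median of −0.34 beside −0.19. Phf19, a Polycomb-like protein that recruits PRC2, had the smallest adjusted p of the list (−2.81 ± 0.16, adjusted p = 3.4e-06). Jarid2, another recruiter, fell by 1.09 ± 0.15 (adjusted p = 0.000441) and Phf1 by 0.60 ± 0.11 (adjusted p = 0.00238). At the step into KIT+ cells 2 rose and 2 fell. Mtf2, the third Polycomb-like gene, fell (−1.36 ± 0.13, adjusted p = 0.000112), while the elongin-binding Epop (0.65 ± 0.10, adjusted p = 0.00155) and the histone chaperone Rbbp4 (0.72 ± 0.15, adjusted p = 0.00694) rose.

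Of 11 other PCGF, CBX and PHC subunits of PRC1, 7 fell into NGN3+ cells and none rose, with a median of −0.52. Pcgf3 (−0.74 ± 0.13), Pcgf6 (−0.57 ± 0.12) and Cbx7 (−0.58 ± 0.15) had the smallest adjusted p. With the 75th percentile over probes well above background, 3 of the 11 fell and 1 rose, and within slide 2 the number that fell was 4. Into KIT+ cells 5 rose and 3 fell (median 0.26 beside 0.05), with 3 rising within slide 2 and with the replicate block. Pcgf6, whose product sits in a germline-gene-silencing form of PRC1, fell 3.97-fold (adjusted p = 2.14e-05). Pcgf2, the close paralog of Bmi1, rose 2.01-fold (adjusted p = 0.00346). These 2 PCGF genes thus moved in opposite directions at this step.

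Variant PRC1 complexes carry RYBP or YAF2 in place of a CBX protein. Of 15 partners, 2 rose and 5 fell into NGN3+ cells, and 4 rose and 5 fell into KIT+ cells, with medians of −0.24 and −0.0090 beside −0.19 and 0.05 for all genes. Bcor, a corepressor of the PCGF1 complex, rose by 0.86 ± 0.16 (adjusted p = 0.00244) and then fell by 1.87 ± 0.16 on the log2 scale (adjusted p = 8.42e-05). Within slide 2 no partner was called higher in NGN3+ than in GFRα1+ cells, Bcor included, and 3 were called lower. Kdm2b, which brings that complex to CpG islands, fell at both steps (−0.79 ± 0.11 and −0.70 ± 0.11). Max fell into NGN3+ cells (−0.90 ± 0.14) and Yaf2 rose into KIT+ cells (0.87 ± 0.11).

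SAM and MBT domain proteins, the group Scml2 belongs to, had 5 of 7 tested genes fall into NGN3+ cells, led by Scmh1 (−1.64 ± 0.10, adjusted p = 3.56e-06), Sfmbt2 (−0.63 ± 0.12) and L3mbtl3 (−0.87 ± 0.21, well above background on 2 of 3 NGN3+ arrays). At the next step 1 of 6 rose (Sfmbt1, 0.68 ± 0.18) and 2 fell (Samd7, −1.03 ± 0.14, and Sfmbt2, −0.38 ± 0.12). With the 75th percentile over probes well above background, and likewise within slide 2, 3 of the 7 fell at the first step. The PR-DUB complex, which removes the mark that PRC1 sets, had 7 of 10 fall and 1 rise into NGN3+ cells, with Asxl1, its activating subunit, at −1.40 ± 0.14 (adjusted p = 6.28e-05), Foxk1 at −0.80 ± 0.13 and Foxk2 at −0.64 ± 0.11. Into KIT+ cells 4 of 10 fell and none rose, with Foxk1 at −1.41 ± 0.13, Ogt at −1.39 ± 0.15 and Mbd5 at −0.78 ± 0.14. From GFRα1+ to KIT+ cells 8 of 10 fell (median −0.74 beside −0.16), and the same number fell within slide 2 and under both other scalings.

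Enzymes that work against the Polycomb marks or opposite them were read next. Of the H3K27 demethylase genes, Kdm6a fell 2.06-fold into NGN3+ cells (−1.04 ± 0.12, adjusted p = 0.000122) with no call for Kdm6b (0.18, adjusted p = 0.235), and Kdm6b rose slightly into KIT+ cells (0.36 ± 0.12, adjusted p = 0.0458), a call that was lost within slide 2 and with the replicate block. Of 10 tested trithorax-side genes for H3K4 methylation, 5 fell into NGN3+ cells and none rose, led by Kmt2a (−1.12 ± 0.14), Kmt2c (−0.88 ± 0.13) and Setd1a (−0.49 ± 0.10). Into KIT+ cells 2 rose and 2 fell, Kmt2c (−0.80 ± 0.13), Kmt2d (−0.66 ± 0.15) and Men1 (0.37 ± 0.10) having the smallest adjusted p. The 5 that fell, beside 36.3% of all genes, became 3 with the percentile of well-detected probes and 2 within slide 2. The 2 that rose became 1 under either other scaling and 0 with the replicate block.

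**Figure D4:**
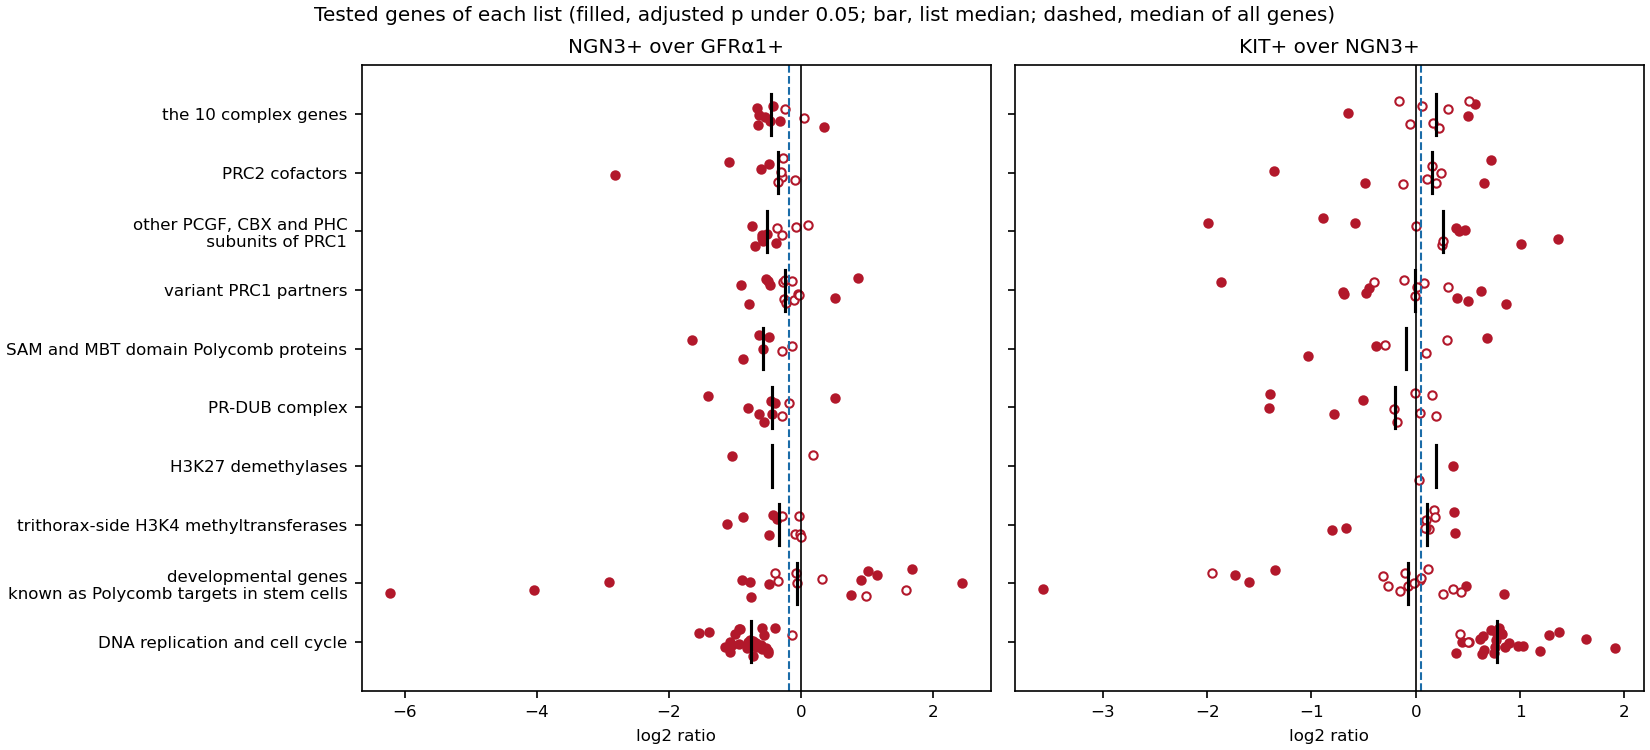
Log2 ratios (x axis) of the tested genes of each list (y axis) for both steps; filled points passed an adjusted p of 0.05, bars are list medians and dashed lines the median of all genes. The DNA replication and cell cycle genes lie left of 0 at the first step and right of 0 at the second, and the developmental genes spread widest. The farthest of these on the left is T, drawn at its fitted value although its NGN3+ arrays are not above background.

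DNA replication and cell cycle genes were read beside the members because Ezh2 is known to follow cell division. Of 26 tested, 25 fell into NGN3+ cells and none rose (median −0.75), and 24 rose into KIT+ cells and none fell (median 0.78). Uhrf1, Mcm3 and Ccna2 fell by 1.07 ± 0.11, 0.92 ± 0.10 and 1.07 ± 0.12 on the log2 scale. Rrm2, Plk1 and Ccne1 rose by 1.64 ± 0.18, 1.37 ± 0.16 and 1.28 ± 0.15. Ezh2 and Suz12 had the same signs at both steps, with ratios nearer 0 than the list medians. By the probe standing for each gene, Eed, Bmi1, Rnf2 and Scml2 shared these signs without a call at the second step (0.16, 0.22, 0.06 and 0.31). Scml2 was not called at the first either. The second Bmi1 probe had the opposite sign at the second step, also without a call (−0.22 ± 0.13, adjusted p = 0.251). Ezh1 fell at both steps, Phc1 had ratios below 0 at both, and Cbx2 and Ring1 had ratios above 0 at the first. Under the other scalings and within slide 2, 20 to 23 of the 26 were called lower at the first step and 24 or 25 higher at the second. The part of cell division in the course of Ezh2 and Suz12 was not tested.

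Developmental genes known as Polycomb targets in stem cells were mostly dim, with 20 of 33 tested between NGN3+ and GFRα1+ cells. A gene dim in 1 group entered only through the other, where it was bright, so its direction was set by that filter. Of the 20, 6 rose and 7 fell, beside 20% and 36.3% of all genes. With the 75th percentile over probes well above background 8 rose and 4 fell, beside 5914 and 5904 of all 23792 genes tested. Within slide 2, 7 rose and 3 fell. The 3 with the smallest adjusted p all fell. T (brachyury) had a mean level of 0.97 in GFRα1+ cells and was not well above background on any NGN3+, KIT+ or whole testes array, which makes it at least 57.8-fold lower in NGN3+ cells (the dimmer group being set to the lowest level well above background on each array). Eomes fell 16.4-fold (adjusted p = 4.76e-06) and Lhx2 fell 7.48-fold (adjusted p = 2.1e-06). All 3 are transcription factor genes. At the second step 2 of 19 rose and 4 fell, among them Foxa2 (−3.57 ± 0.19, well above background on 2 of 3 KIT+ arrays) and Tbx3 (−1.73 ± 0.15). The medians of the list were −0.06 and −0.07, beside −0.19 and 0.05 for all genes tested. The list thus lay above the general median at the first step and below it at the second.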

How the data were processed

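RNA of 12 samples was hybridized to Agilent mouse 8x60K arrays in 1 color, and the arrays were read with Feature Extraction 10.7.3.1 per the labels, although the headers of slide 2 name 10.7.1.1. The authors deposited the scanner intensity of each spot, already background-corrected by that software, and a table of log2 values. The deposited log2 table equalled the values used here within 0.01 for 100.0% of probes. Probe coordinates are those of mm9 in the scanner files.

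Here the log2 of the processed signal was taken minus the 75th percentile of its array. Control spots and outlier flags were left out. One probe stood for a gene, the one with the highest mean over the 9 sorted arrays. Comparisons between sorted fractions were fitted over these 9 arrays, and those against whole testes over all 12, with limma 3.58.1 (R 4.3.3), on genes well above background on all 3 arrays of a compared group, with Benjamini-Hochberg adjustment at 0.05. Other probes were tested in a fit of every probe on its own. Paralog differences were tested by exact permutation (scipy 1.17.1). Of the 55681 probes, 26413 were named by accession, 3859 by symbol and 735 by synonym through RefSeq, and 24674 kept the name in the files. The script was tested on simulated data. The number of arrays limits the precision.

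All 10 members were named, with, of each list, up to 3 tested genes with the smallest adjusted p at either step, and 2 genes most like each member. Some genes that this rule names are not reported here. The members and lists were chosen with earlier results of these data known. Alternatives covered scaling, background correction (normexp with an offset of 50), filters, probe choice, slide, replicate block, single samples left out and the methods' t-test. List counts under other scalings, within slides and with the block were added after seeing the data.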

Additional observations from a re-analysis of the deposited data

How the results depend on the processing

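Over all alternatives, 1480 values of the 10 genes kept their direction and their side of the threshold, 70 lost the call, 27 gained one and 23 changed sign, most of the last being near 0. The number of members called higher from GFRα1+ to NGN3+ cells was 0 in place of 1 with no filter, with normexp, with the slide as a random block, with the replicate block, with the methods' t-test after Benjamini-Hochberg adjustment and at an adjusted p under 0.01, and 0 to 1 with 1 sample left out. The number lower was 5 to 7 with 1 sample left out, in place of 7. It was smaller within slide 2, as was the number of all genes called lower there. From NGN3+ to KIT+ cells, 4 members were higher by the t-test without adjustment and 1 at an adjusted p under 0.01, in place of 2 (1 to 3 with 1 sample left out). From GFRα1+ to KIT+ cells, 2 were higher after quantile normalization, 2 with the percentile of well-detected probes, and 1 with the slide as a fixed block, as a random block or within slide 2, in place of 0 (0 to 1 with 1 sample left out). In that comparison 5 were lower with the mean of all probes and by the t-test without adjustment, in place of 3 (3 to 4 with 1 sample left out). Against whole testes, GFRα1+ cells had 0 lower members with the slide as a fixed block and within slide 1, and 1 after quantile normalization, with a random slide block, by the t-test with or without adjustment and at 0.01, in place of 2 (1 to 2 with 1 sample left out). KIT+ cells had 1 with the slide as a fixed block in place of 2. The cause of these shifts was not tested.

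Signs changed as follows. From GFRα1+ to NGN3+ cells, Ring1 was −0.070 after quantile normalization, −0.10 with normexp, and −0.28 to 0.34 with 1 sample left out (below 0 without GFRα1+ replicate 3 or NGN3+ replicate 1), and Scml2 was 0.067 after quantile normalization. From NGN3+ to KIT+ cells, Bmi1 was −0.000686 with the mean of its probes, and Cbx2 was −0.13 to 0.037 with 1 sample left out (above 0 without NGN3+ replicate 1 or KIT+ replicate 1). From GFRα1+ to KIT+ cells, Ezh2 was 0.035 with normexp, Eed 0.049 after quantile normalization, and Suz12 0.042 after quantile normalization, 0.068 with the other percentile, 0.031 with normexp and 0.071 with the slide as a fixed block or within slide 2. Scml2 was −0.50 with the mean of its probes (adjusted p = 0.00206), −0.11 with the slide as a fixed block or within slide 2, and −0.012 to 0.15 with 1 sample left out (below 0 without KIT+ replicate 2). Against whole testes, Ring1 with the slide as a fixed block was 0.64 in NGN3+ cells and 1.15 in KIT+ cells (adjusted p = 0.014, so that 8 members were higher in place of 7), and in KIT+ cells 0.042 with a random block and −0.36 to 0.000679 with 1 sample left out (above 0 without whole testes replicate 2).

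Arrays with the same replicate number correlated at −0.344 to 0.174 in their deviations, so the numbers were not taken to pair the samples. Differently numbered NGN3+ and KIT+ arrays ran from −0.191 (NGN3+ replicate 1 with KIT+ replicate 3) to 0.405 (NGN3+ replicate 1 with KIT+ replicate 2). NGN3+ replicate 2 with KIT+ replicate 1 was next highest at 0.298. Pairing under another numbering was not tested. With the replicate block, 0 members rose and 5 fell from GFRα1+ to NGN3+ cells. Counts of all genes moved by over 1.5 times in some cases. Genes well above background on every array numbered 2619 higher from GFRα1+ to NGN3+ cells and 3974 from GFRα1+ to KIT+ cells, and 4987, 6051 and 6220 lower against whole testes. From GFRα1+ to NGN3+ cells 5569 were lower with a fixed slide block, 4992 within slide 2 and 5522 at 0.01, and from NGN3+ to KIT+ cells 2491 were higher at 0.01.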

Other observations

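The other Polycomb lists were also read against whole testes, where 50.3%, 44.5% and 43.7% of all genes were higher in GFRα1+, NGN3+ and KIT+ cells and 37.1%, 39.2% and 41.2% lower. Of 9 PRC2 cofactors 7 were higher in each sorted fraction, and of 15 variant PRC1 partners 13, 12 and 13 were higher in the same order. The SAM and MBT domain proteins, Scml2 being counted apart, had 5, 2 and 3 of 9 tested genes higher and 3, 4 and 6 lower. The 5 became 2 with the percentile of well-detected probes and 3 within slide 1. Of 21, 22 and 21 tested developmental genes 10, 8 and 5 were higher and 9, 11 and 11 lower. DNA replication and cell cycle genes were higher for 23, 19 and 21 of 26.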
